A study of Mus musculus with 4 samples.

Results

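The cells described here were the lung barcodes that met a count rule for classical monocytes, compared between TNF+ mice, which are transgenic for human TNF, and TNF- littermate controls. The rule kept barcodes with at least 500 UMIs (unique molecular identifiers, each counting 1 captured RNA molecule) and at most 20% mitochondrial UMIs. It then asked for at least 4 UMIs of Ly6c2 and Ccr2 together and at least 2 of Csf1r and F13a1. It also asked for under 2 UMIs of Treml4 and Adgre4, under 20 of the C1q genes, under 4 of the alveolar macrophage genes Siglecf, Krt79, Plet1 and Marco, and 0 of Flt3, the Cd3 genes, Cd79a and Cdh5. It found 52 members among 19427 kept lung barcodes, 21 of 8342 in the TNF- lung and 31 of 11085 in the TNF+ lung. The values of these genes chose the members and are given only as a description.

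Lung tissue came from female C57BL/6 mice that were 4 months old. TNF+ mice carried 1 copy of a human TNF transgene, which causes erosive joint disease and disease of the lung vessels, and the TNF- mice were wildtype littermates, with no further allele or treatment given for either. Tissue from 3 to 5 mice was pooled per genotype, digested, cleared of red cells, sorted for viable cells and captured as 1 droplet-based 3' library per group. No difference below therefore has a replicate check, no p-value can be given, and the intervals given, at 95%, reflect counting error alone. RNA of the transgene itself was not measured, since the reference holds mouse genes.

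Classical monocytes leave the bone marrow through the chemokine receptor Ccr2 and carry the surface antigen Ly6C. In the lung they stay in the vessels, turn into patrolling nonclassical monocytes, or enter the tissue and become macrophages or antigen-presenting cells. TNF acts on them through its receptors Tnfrsf1a and Tnfrsf1b, and the transcription factor NF-kB then induces inflammatory genes together with its own inhibitors.

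Members held 343938 UMIs in the TNF- lung, with a median of 15109 per cell (2641 to 47688), and 707081 in the TNF+ lung, with a median of 20777 (1847 to 45705). The median over all kept barcodes was 8109 and 9679 UMIs. No member barcode was shared between the lung libraries. In the TNF+ lung, 1580 barcodes had enough Ly6c2 and Ccr2, 869 of them passed the Csf1r and F13a1 step, and 109 of those were under the limit for the nonclassical genes Treml4 and Adgre4. In the TNF- lung these steps left 721, 230 and 103 barcodes. Barcodes that missed the rule only by Treml4 and Adgre4 numbered 367 in the TNF+ and 59 in the TNF- lung, more than the members themselves. F13a1 was detected in 26.4% and 67.8% of these barcodes, and Adgre4 in 99.7% and 98.3%. At the edge of that limit, 8 members in each lung held 1 UMI of the pair, and 11 TNF+ and 5 TNF- barcodes with 2 UMIs fell just outside. A further 21 TNF+ and 30 TNF- barcodes missed the rule only because they held Flt3, a gene of dendritic cells and progenitors. For Csf1r and F13a1, 3 members of each lung held exactly 2 UMIs, while 18 TNF+ and 7 TNF- barcodes with 1 UMI fell outside.

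The label was checked against 5 classical monocyte markers. These were Ly6c2, Ccr2, F13a1 (the A subunit of coagulation factor XIII), Ms4a6c and Fn1 (fibronectin), of which the rule itself uses the first 3. All 5 were present in 14 of 21 TNF- members (66.7%, 43.0 to 85.4) and in 12 of 31 TNF+ members (38.7%, 21.9 to 57.8). F13a1 had no UMI in 2 TNF- and 17 TNF+ members, and Ly6c2 had none in 4 and 11. The label therefore held for part of the members only. Since the rule used 3 of these genes, the shares are a description and no difference between the lungs is read from them.

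The other members fell into profiles that were set after their values were seen. The largest of these were class II-rich members, with 20 or more UMIs of the class II chain H2-Ab1, 4 in the TNF- and 11 in the TNF+ lung. In the 11 TNF+ cells H2-Ab1 ranged from 29 to 337 UMIs with a median of 168, and Cd74, the class II invariant chain, from 113 to 898 with a median of 382. All 11 held Itgax (CD11c; 7 to 38 UMIs), 8 held the chemokine Ccl17 (up to 162 UMIs) and 10 held Fn1, but none held F13a1 and 1 held Ly6c2. Of 14 dendritic cell markers 10 were detected in these cells, at 1020 CPM in sum against 191 CPM in the TNF+ members with all 5 markers, and Flt3 (set to 0 by the rule), Xcr1, Ccr7 and Fscn1 were at 0. The 4 TNF- cells differed among themselves: 3 held F13a1, 2 held Itgax and 1 held Ccl17. Surfactant-rich members, with 100 or more UMIs of Sftpc, the alveolar type 2 surfactant protein C, numbered 1 and 3. They held 4468 Sftpc UMIs in the TNF- cell and 386, 6620 and 9609 in the TNF+ cells, together with the epithelial gene Epcam in each. A single TNF+ member held 1190 UMIs of S100a8 and 1623 of S100a9, calcium-binding proteins abundant in neutrophils. The remaining 2 TNF- and 4 TNF+ members lacked at least 1 marker and met no other profile. These profiles stand apart in the heat map of marker UMIs by cell.

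**Figure D1:**
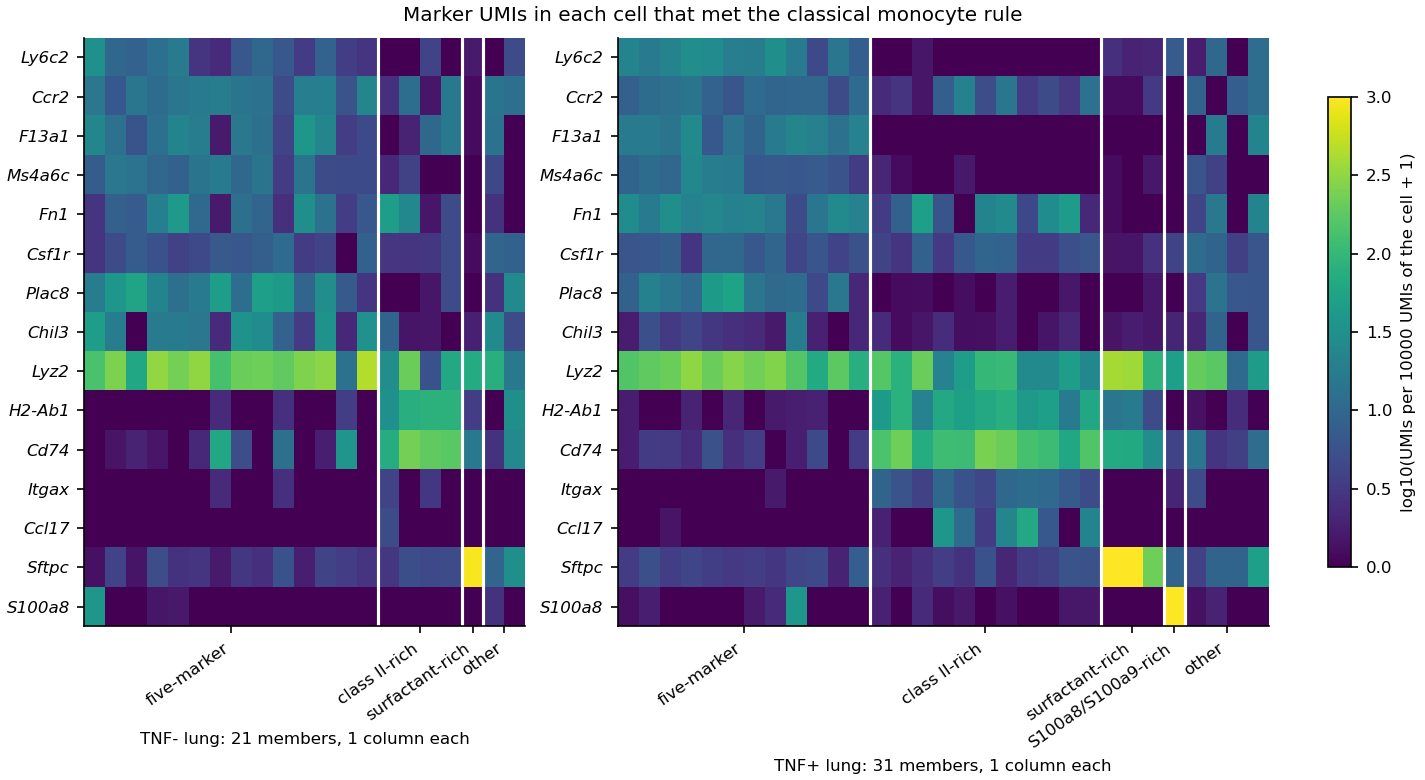
Each column is 1 of the 21 TNF- or 31 TNF+ lung members, grouped by profile, and colour gives log10(UMIs per 10000 UMIs of the cell + 1) of each gene. The 14 and 12 five-marker members hold Ly6c2, F13a1 and Ms4a6c with little H2-Ab1, whereas the 11 class II-rich TNF+ members hold H2-Ab1, Cd74 and Itgax and no F13a1.

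Members made up 0.252% (0.156 to 0.385) of kept barcodes in the TNF- lung and 0.280% (0.190 to 0.397) in the TNF+ lung. The difference was 0.028 percentage points, with an interval of -0.128 to 0.174, so none was detectable at this depth. Five-marker members alone made up 0.168% and 0.108%, a difference of -0.060 points (-0.182 to 0.046). Other myeloid gates were far from equal in the same libraries. Nonclassical monocytes, with Treml4 and Adgre4 at 2 UMIs or more, made up 3.78% and 24.6%, C1q-rich macrophages 0.731% and 3.10%, and neutrophils 2.47% and 0.749%. Members were therefore 6.25% (3.91 to 9.40) of all classical and nonclassical cells in the TNF- lung and 1.12% (0.764 to 1.59) in the TNF+ lung. The plot of gate shares shows the overlap for members and the gap for nonclassical monocytes. The shares rest on counts of barcodes, which the sort and the digestion can also set.

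**Figure D2:**
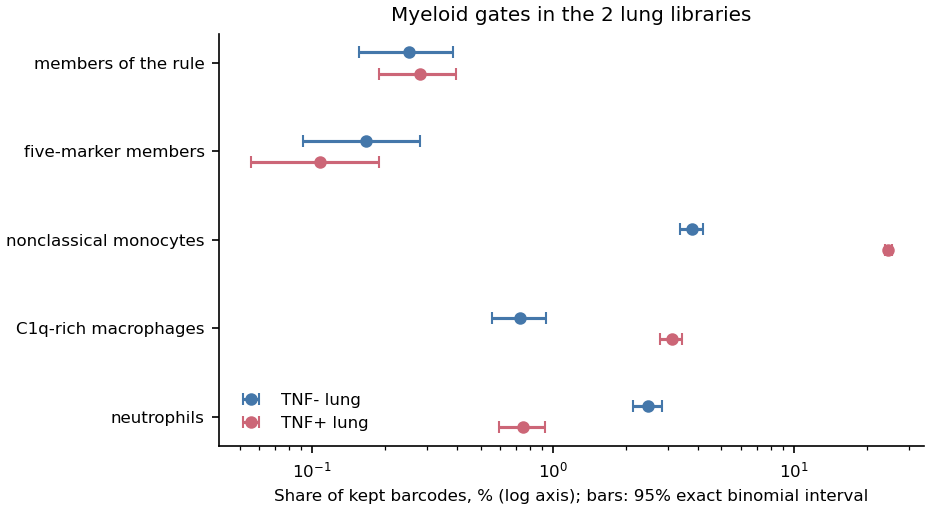
Share of kept barcodes in percent on a log axis for each myeloid gate of the TNF- and TNF+ lung, with exact binomial 95% intervals. Members of the rule overlap at 0.252% and 0.280%, and nonclassical monocytes stand at 3.78% and 24.6%.

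UMIs of all members were then summed per lung and scaled to a common total (CPM). A gene was counted when it held 50 or more UMIs over both lungs, and the rule's own genes were left out. Of 3824 genes counted, 210 were at least 2-fold higher (5.49%) and 225 at least 2-fold lower (5.88%) in TNF+ members. Several higher genes were those that mark the class II-rich members. H2-Ab1 ran from 0 to 84.8 UMIs per 10000 with a median of 0 in TNF- members, and from 0 to 80.6 with a median of 1.08 in TNF+ members. Its summed level was 1317 and 2680 CPM, a log2 ratio of 1.02 (0.88 to 1.18). Mmp12, macrophage elastase, was found in 1 TNF- and 11 TNF+ members at 26.2 and 1187 CPM (log2 ratio 5.50, 4.57 to 6.64). Ccl17 was found in 1 and 9 members at 29.1 and 636 CPM (4.45, 3.56 to 5.52). Of the class II presentation genes, 5 of 11 counted were higher and 1 lower, with a median log2 ratio of 0.67 against -0.08 over all genes.

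Other large ratios over all members came from very few cells. S100a9 was at 46.5 and 2312 CPM, with 99.3% of the TNF+ UMIs in 1 cell. Retnlg, also a neutrophil gene, was seen in 1 TNF+ cell only. Mucl1 held 0 and 871 UMIs, 71.8% of them in 1 of 6 TNF+ cells, and Lcn2, an iron-binding protein of neutrophils and epithelium, 19 and 1061 UMIs, 52.5% in 1 cell. Lyz1, a lysozyme gene close in sequence to Lyz2 so that reads may be shared, was spread more widely, with 5 UMIs in 5 TNF- and 880 in 19 TNF+ cells (log2 ratio 6.42, 5.19 to 8.05). Among lower genes, Retnla, Gm15056 and Nos2 each had all their TNF- UMIs in 1 cell, and Ccl4 had 91.6% there. Cfb, complement factor B, held 68 and 9 UMIs (log2 ratio -3.96), with 97.1% of the TNF- UMIs in 1 cell, and the ratio without that cell was 1.05. Isg15, an interferon-induced ubiquitin-like protein, was at 387 and 43.8 CPM with 72.9% in 1 cell. More than 50% of the UMIs of the higher library lay in 1 cell for 22 of the 210 higher and 41 of the 225 lower genes. Because members of both lungs held several profiles, the comparison was repeated on the 14 and 12 five-marker members, a choice made after the data were seen.

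Five-marker members held 218996 and 209569 UMIs in the TNF- and TNF+ lung, with medians of 14801 and 17099 per cell, so their depth was close. All 21 classical monocyte genes were detected in both lungs, and of 14 dendritic cell markers 6 (356 CPM in sum) were detected in TNF- and 3 (191 CPM) in TNF+ cells, with Zbtb46 and Cd209a at 0 in both and Flt3 at 0 by the rule. C1q macrophage markers summed to 1438 and 382 CPM, with C1qa, C1qb and C1qc at 0 in the TNF- cells, and B and plasma cell markers to 205 and 816 CPM, with Cd79a and Ms4a1 at 0 in both. Of the first sums Apoe alone held 1370 and 172 CPM, and of the second Igkc held 59.4 and 554 CPM. Both genes are themselves compared below. The part of RNA from other cell types in the ratios was not tested. Of 1610 genes counted, 59 were 2-fold higher (3.66%) and 73 lower (4.53%) in TNF+ cells, as the plot of ratio against level shows, and the median log2 ratio was 0.04. With the cell that held most UMIs of each gene left out, 38 and 35 genes passed, 36 and 34 of them among the same 59 and 73. Among cells of 5000 to 15000 UMIs, where 359 genes were counted, 22 and 42 genes passed, 6 and 4 of them among the same.

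**Figure D3:**
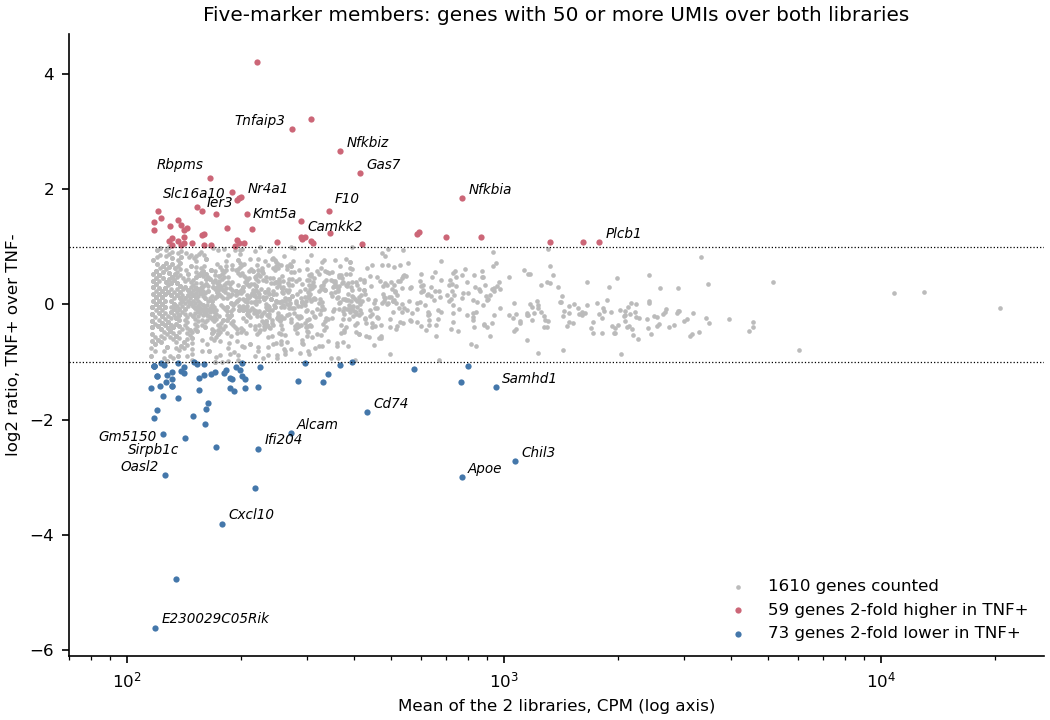
Log2 ratio of TNF+ over TNF- against the mean CPM (log axis) for the 1610 genes counted in five-marker members, where 59 genes lie above 1 and 73 below -1. Tnfaip3 (3.04), Nfkbiz (2.66) and Nfkbia (1.84) are labelled among the higher genes and Cxcl10 (-3.80), Apoe (-3.0) and Chil3 (-2.72) among the lower ones.

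Most genes of classical monocyte identity differed by less than 2-fold. Ly6c2 ran from 1.32 to 31.2 UMIs per 10000 with a median of 6.68 in TNF- cells and from 3.55 to 30.2 with a median of 17.8 in TNF+ cells. The ranges overlapped fully, and the summed level was 1009 and 1990 CPM (log2 ratio 0.98, 0.74 to 1.22). Fn1 had a log2 ratio of 0.89 (0.66 to 1.12), Ccr2 of -0.51 (-0.78 to -0.24), F13a1 of 0.14 (-0.08 to 0.37) and Ms4a6c of 0.12 (-0.15 to 0.40). These 5 genes chose the cells and are not counted below. Lyz2, lysozyme, was at 21096 and 20284 CPM (-0.06, -0.12 to 0.00). Single cells were less even, from 12.3 to 455 UMIs per 10000 in TNF- and from 66.5 to 309 in TNF+ cells. Of 22 counted identity genes outside the rule, 3 were 2-fold higher, namely the transcription factor Cebpb (1041 and 2190 CPM, 1.07), the haemoglobin scavenger Hp (849 and 1804 CPM, 1.09) and the C-type lectin receptor Clec4e (73.1 and 234 CPM, 1.68). Only Chil3 was lower. Over all genes 3.66% were higher and 4.53% lower, so calls were not rarer in this list. The median over the list was 0.11.

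In five-marker members, the list of TNF receptors and NF-kB feedback genes had more higher genes than any other list. Of its 30 genes 13 were counted, and 5 of these were higher and none lower, with a median log2 ratio of 0.58, where 3.66% of all genes were higher. Over all members 5 of 27 were higher (5.49% of all genes) and 3 lower, namely Marcksl1, Ripk1 and Tnfrsf1a, with a median of 0.08. The 5 higher genes in five-marker members were Tnfaip3, Nfkbia, Nfkbiz, Ier3 and Tnf itself. Tnfaip3 is a ubiquitin-editing inhibitor of NF-kB, Nfkbia the NF-kB inhibitor alpha and Nfkbiz a nuclear regulator of the same family. Over all members the 5 were Tnfaip3, Nfkbia, Nfkbiz, Bcl2a1d and Tnip3, and Tnf had a log2 ratio of -0.31 (-0.83 to 0.23). The promoters of Tnfaip3 and Nfkbia, both inhibitors of NF-kB, and of Cxcl10, the interferon-induced gene with the ratio furthest below 0 in its list, are printed as the 300 bases around each start site. Coordinates are chr10:19015361-19015660, chr12:55492598-55492897 and chr5:92348840-92349139 of GRCm38.p6, all on the minus strand, from RefSeq. Capitals mark every match, on either strand, of GGG and CC with any 5 bases between them (NF-kB type) or of GAAA and GAAA with any 2 bases between them (interferon-response type), and overlapping matches run together.
Tnfaip3: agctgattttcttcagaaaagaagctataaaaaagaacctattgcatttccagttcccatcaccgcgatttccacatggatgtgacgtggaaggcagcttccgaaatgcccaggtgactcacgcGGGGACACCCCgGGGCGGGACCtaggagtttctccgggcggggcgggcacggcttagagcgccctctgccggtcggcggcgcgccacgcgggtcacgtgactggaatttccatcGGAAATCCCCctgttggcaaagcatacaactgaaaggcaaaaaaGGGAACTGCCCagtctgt
Nfkbia: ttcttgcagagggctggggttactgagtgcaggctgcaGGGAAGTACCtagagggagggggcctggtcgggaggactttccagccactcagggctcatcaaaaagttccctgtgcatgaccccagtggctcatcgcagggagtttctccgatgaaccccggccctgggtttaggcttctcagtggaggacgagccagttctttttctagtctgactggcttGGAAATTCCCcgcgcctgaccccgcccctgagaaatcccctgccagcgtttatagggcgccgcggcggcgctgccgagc
Cxcl10: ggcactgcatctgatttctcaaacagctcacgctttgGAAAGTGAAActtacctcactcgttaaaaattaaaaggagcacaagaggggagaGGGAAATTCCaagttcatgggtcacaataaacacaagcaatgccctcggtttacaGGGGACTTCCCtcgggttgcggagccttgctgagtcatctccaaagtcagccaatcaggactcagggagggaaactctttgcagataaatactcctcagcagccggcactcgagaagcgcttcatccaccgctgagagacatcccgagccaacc

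Tnfaip3 was detected in 6 of 14 TNF- and 11 of 12 TNF+ cells, at 0 to 3.69 UMIs per 10000 with a median of 0 and at 0 to 23.1 with a median of 2.52. Of the TNF+ cells, 5 lay above the highest TNF- cell. The summed level was 59.4 and 487 CPM (log2 ratio 3.04, 2.20 to 3.99). T cells, which express Tnfaip3 themselves, held 2.06 and 1.94 UMIs each, against 0.929 and 8.50 per five-marker cell. Nfkbiz ran from 0 to 2.46 with a median of 0.854 in TNF- cells and from 1.38 to 15.1 with a median of 4.66 in TNF+ cells. Here 8 of 12 TNF+ cells lay above every TNF- cell, at 100 and 635 CPM (2.66, 2.0 to 3.38). Nfkbia ran from 0 to 44.3 with a median of 1.80 and from 4.62 to 25.3 with a median of 9.69. Every TNF+ cell was above the TNF- median, and the 1 TNF- cell at 44.3 held 48.6% of the TNF- UMIs. The summed level was 338 and 1212 CPM (1.84, 1.46 to 2.24), and 0.82 on the log2 scale among cells of 5000 to 15000 UMIs. Tnf was at 105 and 262 CPM (1.32, 0.59 to 2.09), with 1.64 and 4.58 UMIs per cell against 0.732 and 1.32 per T cell of the same libraries, which gives the level of free RNA or of expression in other cells. Ier3 was at 86.8 and 310 CPM (1.84, 1.08 to 2.66), but its ratio was -1.91 among cells of 5000 to 15000 UMIs.

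The receptors did not follow the inhibitors. Tnfrsf1a had a log2 ratio of -0.90 (-1.76 to -0.09) and Tnfrsf1b of 0.44 (-0.11 to 1.0). The NF-kB subunits Nfkb1 and Rel had ratios of 0.14 (-0.34 to 0.62) and 0.75 (0.22 to 1.30). Summed over the whole list, TNF- cells ran from 11.2 to 128 UMIs per 10000 with a median of 26.2 and TNF+ cells from 39.3 to 99.5 with a median of 54.3, so all 12 TNF+ cells lay above the TNF- median and 2 of 14 TNF- cells above the TNF+ median. In the promoters, NF-kB type letters occurred for 8 of the 9 named higher genes that matched a RefSeq promoter and for 27 of 41 (65.9%) of all higher genes. They also occurred for 33 of 59 lower genes (55.9%) and for 50.4% of 27025 promoters, so the letters are common. A match is a description of sequence and not a binding site.

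Further named higher genes belonged to no list in common. F10, coagulation factor X, ran from 0 to 4.67 UMIs per 10000 with a median of 1.25 in TNF- cells and from 1.31 to 11.5 with a median of 4.8 in TNF+ cells, of which 6 lay above every TNF- cell (169 and 515 CPM, 1.61, 1.06 to 2.19). Nr4a1, an orphan nuclear receptor that nonclassical monocytes need, was at 86.8 and 315 CPM (1.86, 1.11 to 2.68). Gas7 (2.28), Rbpms (2.20), the amino acid transporter Slc16a10 (1.95), Kmt5a (1.56) and the kinase Camkk2 (1.45) were also higher. Plcb1 was at 1151 and 2429 CPM (1.08), with 44.6% of the TNF+ UMIs in 1 cell and a ratio of 0.44 without it. Among the largest ratios were those of the immunoglobulin genes Igha (4.20) and Igkc (3.22). TNF+ cells held 7.33 Igha and 9.67 Igkc UMIs each, against 4.58 and 8.10 per T cell of the same library, while the defining B cell gene Cd79a was at 0 by the rule.

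C3, the central complement component, was higher too. It ran from 0 to 8.57 UMIs per 10000 with a median of 3.69 in TNF- cells and from 3.24 to 13.2 with a median of 9.14 in TNF+ cells. Of the TNF+ cells 6 lay above every TNF- cell, and the summed level was 352 and 821 CPM (log2 ratio 1.22, 0.83 to 1.63). T cells held 0.0425 and 0.238 C3 UMIs each, against 5.50 and 14.3 per five-marker cell. Of 4 complement genes counted C3 was the only one past 2-fold, where 3.66% of all genes were higher, and the list median was 0.27. The properdin gene Cfp had a ratio of 0.16 (-0.61 to 0.93), and the complement receptor subunits Itgam and Itgb2 of 0.38 (-0.05 to 0.82) and -0.27 (-0.80 to 0.25). Cfb held 2 and 0 UMIs, C3ar1 1 and 0 and C5ar1 3 and 8 in these cells, too few to compare.

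In five-marker members, interferon-stimulated genes were the list with the most lower genes. Of 16 counted, 8 were lower and none higher, with a median log2 ratio of -0.99, and over all members 22 of 23 were lower, with a median of -1.73. Of all genes 4.53% and 5.88% were lower in these comparisons. Ifi204, a cytosolic DNA sensor, ran from 0 to 12.5 UMIs per 10000 with a median of 3.06 in TNF- cells and from 0 to 2.0 with a median of 0.400 in TNF+ cells. Of the TNF- cells 9 of 14 lay above every TNF+ cell (379 and 66.8 CPM, -2.5, -3.44 to -1.68). Slfn5 was detected in 13 of 14 and 6 of 12 cells (475 and 205 CPM, -1.21, -1.76 to -0.68), and Stat2, which carries interferon signals to the nucleus, in 12 and 7 (205 and 66.8 CPM, -1.62, -2.60 to -0.73). Oasl2 (-2.97, with 51.0% of the TNF- UMIs in 1 cell), Irf1 (-1.29), Ifi211 (-1.10) and Bst2 (-1.04) were lower as well. Cxcl10, an interferon-induced chemokine, had the largest ratio of the list at 333 and 23.9 CPM (-3.80, -5.47 to -2.52), but was seen in only 3 TNF- and 2 TNF+ cells.

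Some genes of that list stayed within 2-fold. They included Ly6e (-0.11, -0.35 to 0.12), Ms4a4c (-0.24, -0.68 to 0.20) and Ifi27l2a (-0.30, -0.55 to -0.05), which monocytes express at rest. Summed over the list, TNF- cells ran from 14.9 to 305 UMIs per 10000 with a median of 65.0 and TNF+ cells from 13.6 to 182 with a median of 36.0. The ranges overlapped, although 3 TNF- cells (206, 227 and 305) lay above every TNF+ cell. Of the TNF- cells 12 of 14 lay above the TNF+ median, and 2 of 12 TNF+ cells above the TNF- median. The 3 high TNF- cells held 311, 491 and 248 UMIs of the list, against 8 to 176 in each other TNF- cell. They thus carried a large part of the summed level, and all TNF- UMIs of Cxcl10. In the same order they held 4, 25 and 8 of the 49 TNF- UMIs of Oasl2. For Ifi204 they held 13, 27 and 5 of 83. Their Lyz2 was the lowest of the TNF- cells, at 132, 59.6 and 12.3 UMIs per 10000. The cell at 305 was also the TNF- cell at 44.3 for Nfkbia. Ratios without these 3 cells were not tested. Interferon-response type letters occurred in 12 of 59 promoters of lower genes (20.3%) and 1 of 41 of higher genes (2.44%), against 3.49% of all promoters. They occurred in 24 of 39 promoters of the list itself (61.5%). Cxcl10, Bst2, Stat2, Slfn5 and Ifi211 were among these and also among the lower genes, so the shares overlap and are not separate results.

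Genes of macrophage differentiation lay in both directions. Apoe, a lipid carrier of macrophages, ran from 0 to 85.7 UMIs per 10000 with a median of 7.41 in TNF- cells and from 0 to 5.19 with a median of 1.5 in TNF+ cells. Of the TNF- cells 8 lay above every TNF+ cell (1370 and 172 CPM, log2 ratio -3.0, -3.54 to -2.49). Adgre1 (F4/80; 1.06) and Fabp5 (1.10) were higher among the 9 counted genes of the list, whose median was 0.17. Of all genes 3.66% were higher. Chil3, a chitinase-like protein typical of fresh classical monocytes, ran from 0 to 45.9 with a median of 16 in TNF- cells and from 0 to 17.6 with a median of 1.45 in TNF+ cells. It was at 1854 and 282 CPM (-2.72, -3.14 to -2.32). Thinned to 2000 UMIs per cell, Chil3 was seen in 12 of 14 TNF- (85.7%, 57.2 to 98.2) and 4 of 12 TNF+ cells (33.3%, 9.92 to 65.1), against 92.9% and 91.7% before thinning. In T cells thinned alike, the share went the other way, from 5.86% to 16.2%.

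Other lower genes included Samhd1, a nucleotide hydrolase that limits viruses (1388 and 511 CPM, -1.44, -1.77 to -1.12), Alcam (-2.23), the signal-regulatory gene Sirpb1c (-2.32) and the predicted gene Gm5150 (-2.26). The noncoding RNA E230029C05Rik held 51 and 1 UMIs (-5.61). Il1b, the cytokine interleukin 1 beta, was at 187 and 52.5 CPM (-1.83, -2.94 to -0.85), with 58.5% of the TNF- UMIs in 1 cell. Cd74 (-1.87) and Ccl5 (-4.77) rested on 1 TNF- cell as well, with 61.7% and 96.5% of the UMIs, and their ratios without it were -0.59 and -0.09.

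In the remaining lists 3 to 18 genes each were counted, where 3.66% of all genes were higher and 4.53% lower. Of 12 counted chemokine receptor and adhesion genes only the integrin Itgal was lower (-1.32), and the list median was 0.21. Of 7 chemokine and cytokine genes Tnf was higher and Ccl5, Cxcl10 and Il1b lower (median -0.56), and of 4 class II presentation genes Cd74 and Cd86 (-1.02) were lower (median -0.93). No gene of 7 for class I presentation (median -0.31), 3 Fc receptor genes (-0.40) or 4 cell cycle genes (0.23) passed 2-fold in either direction. Of 18 immediate-early and stress genes, Nr4a1 was higher and Atf3 (-1.25) and Klf6 (-1.05) lower, and Fos (-0.02) and Dusp1 (0.02) were level, with a median of 0.06. Of 9 glycolysis genes Pgam1 was higher (1.01; median 0.42), and of 4 pattern recognition genes Clec4e (median 0.87). Of 8 alarmin and granule genes Hp was higher and Chil3 and Mmp8 (-1.07) lower (median -0.30), and of 8 coagulation and matrix genes F10 was higher and Mmp8 and Tgfbi (-1.08) lower (median -0.14).

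**Figure D4:**
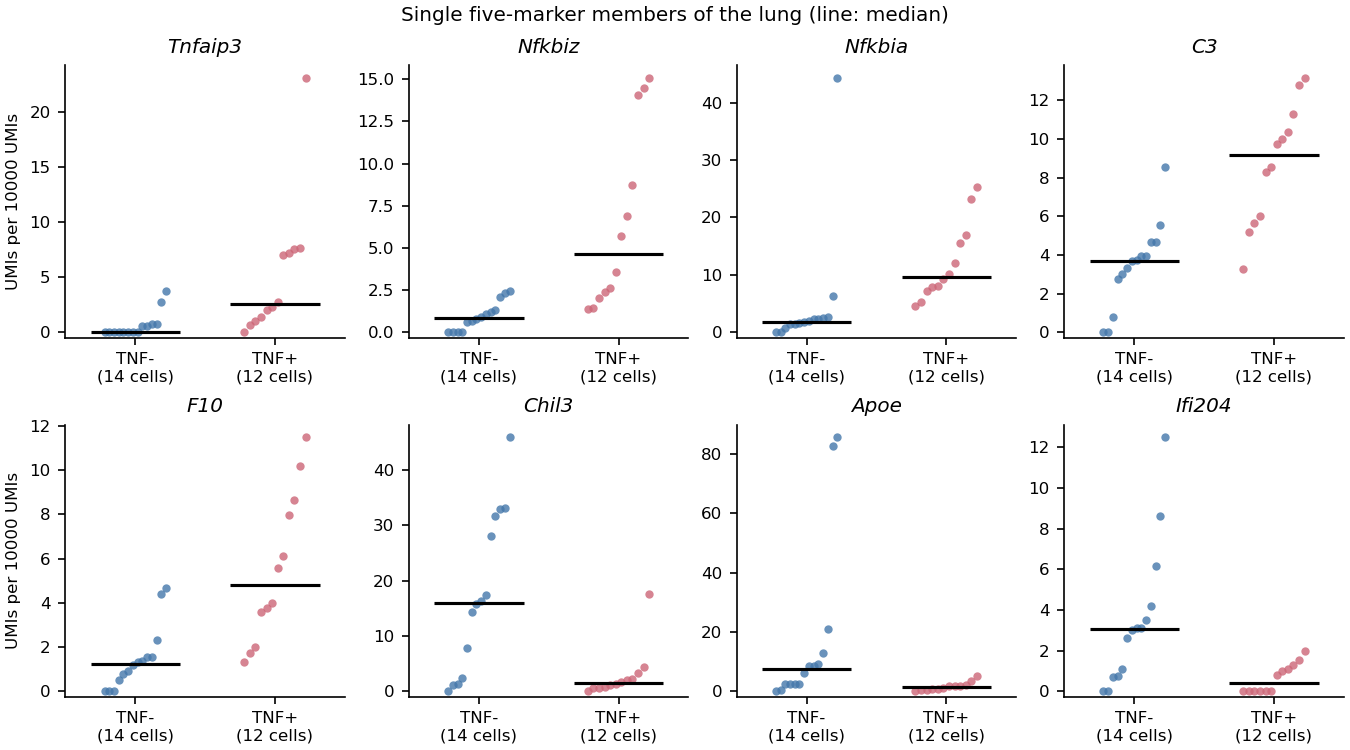
UMIs per 10000 UMIs of the cell in each of the 14 TNF- and 12 TNF+ five-marker members for 8 genes, with the median as a line and a separate linear axis per gene. Nfkbiz has a median of 0.854 in TNF- and 4.66 in TNF+ cells, C3 of 3.69 and 9.14, Chil3 of 16 and 1.45, and Ifi204 of 3.06 and 0.400.

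The same genes were read in other gates of these libraries, as descriptions of the same 2 lungs. In nonclassical monocytes (315 and 2730 cells) the log2 ratio was 1.70 for Tnfaip3, 1.36 for Nfkbia, 1.63 for Ier3, 0.53 for Nfkbiz and 0.35 for Tnf. In C1q-rich macrophages Ier3 (-0.74, -0.96 to -0.51) and Tnf (-0.89) lay below 0, while Tnfaip3 (0.52) and Nfkbia (0.99) lay above. Nfkbiz, at 2.66 in five-marker members, was thus further from 0 there than in nonclassical monocytes (interval 0.44 to 0.62) or C1q-rich macrophages (-0.61, -0.81 to -0.40). In T cells the ratios were 0.23 for Tnfaip3, 0.66 for Nfkbia, 0.59 for Nfkbiz, -1.09 for Ier3 and 1.16 for Tnf. C3 and Hp were higher in nonclassical monocytes (1.89 and 2.5) and in C1q-rich macrophages (3.66 and 2.43). In T cells, which gave the level of free RNA, the ratios were 2.80 and 3.36 at low levels. There C3 was at 3.88 and 27.1 CPM and Hp at 3.46 and 35.5 CPM. F10 was at 0.95 in nonclassical monocytes and -0.01 in C1q-rich macrophages.

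The interferon-stimulated genes named above were also read in these gates. In nonclassical monocytes Cxcl10 was at -4.02, Oasl2 at -2.41, Ifi204 at -1.69, Stat2 at -1.67 and Slfn5 at -2.56. In C1q-rich macrophages the ratios were -0.54, -1.60, -1.20, -1.76 and -1.29. Bst2 was at -0.77 in nonclassical monocytes and 0.36 in C1q-rich macrophages. Chil3 and Apoe had ratios of different sign across gates. Chil3 was at -0.30 in nonclassical monocytes, 1.08 in C1q-rich macrophages and 1.91 in T cells, and Apoe at -0.68, 0.53 and 2.74, against -2.72 and -3.0 in five-marker members. In the T cells, which gave the level of free RNA, Chil3 was at 26.4 and 99.1 CPM and Apoe at 28.0 and 187 CPM. The intervals of the myeloid gates are drawn in the plot of ratios by gate.

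**Figure D5:**
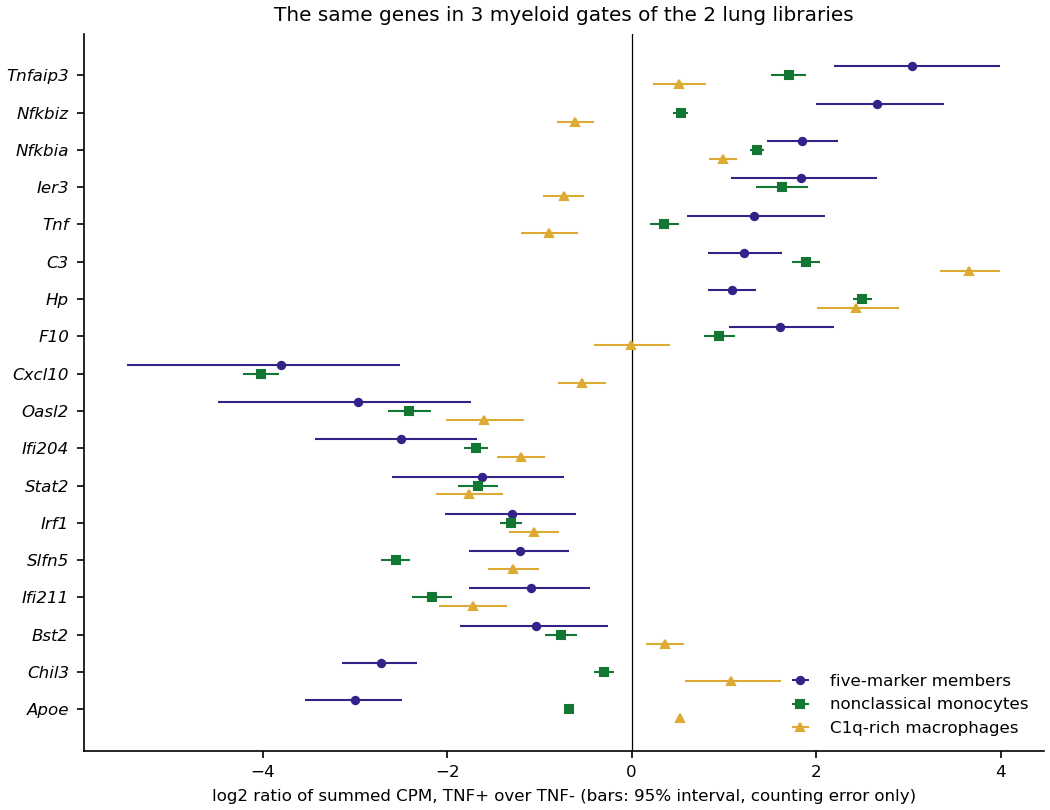
Log2 ratio of summed CPM, TNF+ over TNF-, for genes described here in five-marker members, nonclassical monocytes and C1q-rich macrophages, with 95% intervals for counting error. Tnfaip3 and Nfkbia lie above 0 and Stat2, Slfn5 and Ifi204 below 0 in all 3 gates, while Nfkbiz, Chil3 and Apoe take different signs.

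Variation among members followed the profiles. Thinned to 2000 UMIs, the genes with the highest variance over mean in TNF- members were Sftpc, Sftpa1, Fth1, Cd74 and Retnla, and in TNF+ members Sftpc, S100a9, S100a8, Retnlg and Sftpa1. Within five-marker TNF- cells they were Lyz2, S100a8, Apoe, Cd74 and Tmsb10. Across the cells of a lung, which share a library, Ly6c2 and H2-Ab1 had a Spearman rho of -0.56 over 21 TNF- and -0.79 over 31 TNF+ members, and Ly6c2 and Ms4a6c of 0.42 and 0.80. The rule used Ly6c2, and the profiles were set by H2-Ab1 and the markers, so these values are a description only. After thinning, which left out 1 TNF+ member of under 2000 UMIs, H2-Ab1 was seen in 28.6% of TNF- and 56.7% of TNF+ members, against 4.37% and 16.8% of T cells (42.9% and 71.0% of members before thinning). F13a1 was seen in 61.9% and 40.0% of members and 0.230% and 0.299% of T cells.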

How the data were processed

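Droplet-based 3' single-cell libraries of lung and synovium, 1 per tissue and genotype and 4 in all, were deposited as raw count matrices of UMIs. The authors made these counts with Cell Ranger 7.0.1 on its mm10 (GRCm38) reference, which counts intronic reads too by default. No normalized value was used, and no column of another series was found (0).

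Barcodes with at least 500 UMIs and at most 20% mitochondrial UMIs were kept, with no upper limit on genes. Members were found by the stated UMI rule. Doublets were not removed for the main values and were removed by their Scrublet score in an alternative, which took 571 TNF- and 997 TNF+ barcodes, among them 2 and 1 members and 0 five-marker cells. UMIs were summed over members as CPM with exact Poisson intervals. Log2 ratios of TNF+ over TNF- have conditional binomial intervals, shares Clopper-Pearson and their differences Newcombe intervals, all at 95%. PCR duplicates are removed by the UMIs, and all intervals cover counting error only. With 1 library per group no p-value was computed and no replicate spread exists. Genes needed 50 UMIs over both lungs, and a gene with no UMI in 1 lung was set to a floor of 3 UMIs there. T cells (3 or more Cd3 UMIs, no Cd79a, at most 5 Csf1r and Lyz2 UMIs) gave the level of free RNA. Named genes were the first 12 in each direction by the interval bound nearest 0 whose level per T cell was under 1/4 of that per member, the first 6 without that limit, examples of each gene list (1 gene that the rule named is not reported here), the 5 markers, 4 complement genes and the 10 genes of highest variance per library. The members, the gene lists and this rule were chosen with earlier results of these data known. The five-marker set, the profiles, and the alternatives without each gene's top cell, without surfactant-rich and S100a8/S100a9-rich members, and on five-marker cells were chosen after the values were seen.

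Promoters were read from RefSeq (GRCm38.p6), 1 for each of 27025 symbols. The scripts were tested on simulated data, drawn with counting error only and no variation between cells, unlike the members themselves. Python 3.11.15, numpy 2.4.6, pandas 2.3.3, scipy 1.17.1, scanpy 1.11.5 and matplotlib 3.10.9 were used.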

Additional observations from a re-analysis of the deposited data

Results flagged for a closer look

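The same rule found 100 cells in the TNF- and 125 in the TNF+ synovium, of which 24 and 42 had the five-marker profile. The genes below had log2 ratios of TNF+ over TNF- of opposite sign in lung and synovium. Each tissue and genotype was 1 library, and the difference between tissues was not tested.

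Over all members, Chil3 was at -3.21 in lung and 1.85 in synovium, Vcan, a matrix proteoglycan of classical monocytes, at -1.17 and 1.77, and Ms4a6c at -0.89 and 0.28. The class II genes H2-Ab1 (1.02 and -1.38) and Cd74 (1.06 and -1.49) had the opposite order. Cfb, complement factor B, was at -3.96 and 3.20, where the lung value rests on 1 TNF- cell. The mix of profiles differed between tissues as well as genotypes, with 70 TNF- and 33 TNF+ synovial members being class II-rich.

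Among five-marker members alone, Ly6c2 was at 0.98 in lung and -0.42 in synovium, and Chil3 at -2.72 and 0.24. S100a8 was at -0.94 and 5.01 and Il1b at -1.83 and 1.54, and in lung 1 TNF- cell held more than 50% of the UMIs of each of these last genes.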

How the results depend on the processing

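No paired analysis was possible because each group was 1 library. Of the alternatives for shares and counts 67 stayed close to the main value and 30 moved, and for single genes 682 stayed, 153 moved and 11 reversed. The causes were not tested. The members' share was 0.420% (TNF-) and 0.406% (TNF+) with under 2 lineage UMIs allowed, 0.185% in the TNF+ lung with the study's gene limits, and 0.550% there with thresholds per 10000 UMIs, where the difference was 0.191 points. The difference, 0.028 points, was -0.058 with the study's limits and -0.014 with under 2 lineage UMIs. With 8 UMIs of Ly6c2 and Ccr2 required, 86.7% of TNF- members were five-marker cells.

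Counts of genes over all members (210 higher, 225 lower) were 78 and 125 with the study's limits, 32 and 36 in members of 5000 to 15000 UMIs, 571 and 535 at a minimum of 20 UMIs and 45 and 23 at 200. Higher genes numbered 335 with thresholds per 10000 and 808 with the T cell level subtracted, and lower genes 131 without free-RNA genes and 107 without each gene's top cell. In five-marker members (59 and 73) the counts were 102 and 148 with thresholds per 10000, 22 and 42 at 5000 to 15000 UMIs, 229 and 291 at 20 UMIs, 8 and 6 at 200 and 38 and 35 without top cells. Higher genes numbered 310 with the T cell level subtracted, and lower genes 118 with under 2 lineage UMIs. Of the 59 and 73 genes, 25 and 38 were still called with the study's limits and 33 and 46 with thresholds per 10000. All 59 and 73 were still called with doublets removed. Of the 210 and 225 over all members, these alternatives kept 33 and 75, 125 and 116, and 178 and 173.

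Reversed log2 ratios were those of Cftr (0.90 with the study's limits, 0.74 without the top cell), S100a9 (-1.19 at 8 Ly6c2 and Ccr2 UMIs, -1.44 without the top cell, -1.35 without surfactant-rich and S100a8/S100a9-rich members), Itih4 (-0.32 per 10000, -0.58 without those members), Cfb (0.94 without doublets, 1.05 without the top cell), Hivep3 (0.28) and Ier3 in five-marker members (-1.91), the last 2 at 5000 to 15000 UMIs.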
